A study of Rattus norvegicus with 6 samples.

Results

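Ion channels that open when a cell membrane is stretched were followed through 10 genes: Piezo1, Piezo2, Trpv2, Trpv4, Trpc1, Pkd2, Kcnk2, Kcnk4, Tmem63a and Tmem63b. They were chosen by gene symbol from the 21028 gene models of an RNA sequencing table, and each symbol had 1 row. The choice did not use their measured values but was made with earlier results of these data known. The 6 libraries came from the sciatic nerve of female rats labelled wild type, in which a conduit, a tube placed across the gap, was used to repair the nerve. In the PLLARS_US group, 3 rats had a PLLARS conduit and ultrasound stimulation, and in the PCL group 3 rats had a PCL conduit and no ultrasound. The series title calls the tested device piezoelectric, biodegradable and based on Rochelle salt. Conduit material and ultrasound changed together, so their parts cannot be told apart. Age, strain and the time between surgery and collection are not given in the sources used here.

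Mechanosensitive channels turn force on the membrane into a flow of ions. Piezo, TRP and TMEM63 channels mostly let calcium and other cations in and so depolarise the cell, whereas the potassium channels encoded by Kcnk2 and Kcnk4 let potassium out and hold the membrane near rest. In peripheral nerve such channels are known from the endings of touch-sensing axons, from Schwann cells and from blood vessels, and ultrasound is a mechanical stimulus that has been used to open several of them in cultured cells. An RNA level says how much message the tissue held and nothing about how often a channel opened.

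Values are FPKM, the sequenced fragments per kilobase of gene model and scaled to the depth of the library, so levels can be set side by side between genes. Judged by the smallest steps between low values, library depth was about 15630000 to 16360000 fragments in PLLARS_US libraries and about 15320000 to 16680000 in PCL libraries. All 7 Schwann cell markers were above 1 FPKM in every library. The libraries were uneven in skeletal muscle RNA. The summed FPKM of 7 muscle markers was 14298, 21.3 and 2795 in PLLARS_US replicates 1 to 3 and 97.5, 1193 and 8780 in PCL replicates 1 to 3. PLLARS_US replicate 1 and PCL replicate 3, which held the most, are called muscle-rich here. Red blood cell RNA was uneven too. Its 5 markers found summed to 15790, 113 and 1026.5 FPKM in PLLARS_US libraries and to 20780, 2538 and 1823 in PCL libraries. The summed FPKM of 5 neutrophil markers was 367 in PLLARS_US replicate 1 and between 26.5 and 98.7 in the other libraries. In bulk tissue, fewer cells of a type and less RNA per cell cannot be told apart.

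The 10 channel genes covered a wide span of levels. Trpv2 had the highest mean, 52.5 ± 39.2 FPKM (SD over the 6 libraries), above 88.4% of the 13720 genes with a mean of at least 1 FPKM. Piezo1 averaged 24.7 ± 4.38 FPKM and Pkd2 23.3 ± 4.62, and they were followed by Tmem63b at 18.2 ± 2.43 and Tmem63a at 11.7 ± 1.00. Below them came Piezo2 at 5.45 ± 2.50 FPKM, Trpv4 at 3.53 ± 1.14, Kcnk2 at 3.23 ± 1.63, Trpc1 at 2.35 ± 0.808 and Kcnk4 at 1.42 ± 0.960. Piezo1 exceeded Pkd2 in 6 of 6 libraries although their means were only 1.06-fold apart, and the steps from Pkd2 to Tmem63b, Tmem63a and Piezo2 also held in 6 of 6. Trpv2 exceeded Piezo1 in 5 of 6 libraries, with a mean log2 ratio of 0.71 and an SD of 1.41, so these neighbours did not differ beyond their spread. The same held for Piezo2 over Trpv4 (0.52, SD 0.54), Trpv4 over Kcnk2 (0.27, SD 0.50), Kcnk2 over Trpc1 (0.32, SD 0.45) and Trpc1 over Kcnk4 (0.95, SD 1.21).

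**Figure D1:**
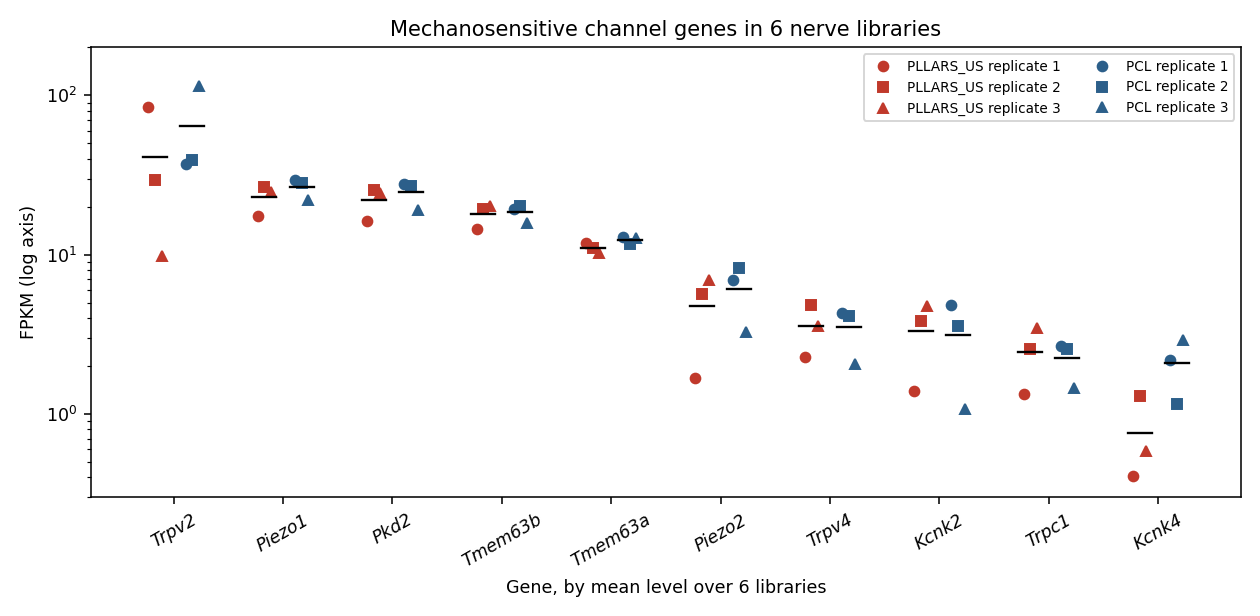
FPKM of the 10 channel genes in each library on a log axis, with PLLARS_US libraries in red left of PCL libraries in blue, 1 symbol per replicate and black lines at the group means (n = 3 each). Groups overlap in all 10 genes, and Trpv2 spans 11.7-fold between its lowest and highest library whereas Tmem63a spans 1.26-fold.

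The Piezo genes encode large trimeric cation channels gated directly by membrane tension. Piezo1, which senses flow and stretch in endothelium and red blood cells, had 17.5, 26.5 and 24.8 FPKM in PLLARS_US replicates 1 to 3 and 29.4, 28.0 and 22.0 in PCL replicates 1 to 3. The lowest library was the muscle-rich PLLARS_US replicate 1, and the groups overlapped. The group means were 23.0 ± 4.81 and 26.5 ± 3.94 FPKM (SD, n = 3 each). The log2 difference, on log2(FPKM + 1) as all differences given here, was -0.21 (SE 0.20). Piezo2, the channel of light touch in sensory neurons and Merkel cells, had 1.68, 5.70 and 6.97 FPKM in PLLARS_US libraries and 6.89, 8.23 and 3.25 in PCL libraries. Both muscle-rich libraries stood well below the other 4, which lay between 5.70 and 8.23. The log2 difference of Piezo2 was -0.37 (SE 0.50). The ratio of Piezo1 to Piezo2 was 10.4 in PLLARS_US replicate 1 and 6.77 in PCL replicate 3, and between 3.40 and 4.66 in the other libraries, so in the muscle-rich libraries Piezo2 stood further below its level elsewhere than Piezo1 did. By the deposited positions, whose rat build is not settled, Piezo1 (ENSRNOG00000056786) spans bases 55305496 to 55367353 of chromosome 19 and Piezo2 (ENSRNOG00000038784) bases 58354648 to 58499836 of chromosome 18, both on the minus strand. The Piezo1 model shares 207 bases with Ctu2 on the other strand, and without a stated strand in the counting reads there cannot be assigned.

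Of the TRP family, Trpv2 encodes a cation channel that responds to stretch and strong heat and is found in macrophages as well as neurons. It had 84.5, 29.3 and 9.80 FPKM in PLLARS_US libraries and 37.2, 39.1 and 115 in PCL libraries. Its 2 highest values were in the muscle-rich libraries, 1 of each group. The means were 41.2 ± 38.7 and 63.7 ± 44.3 FPKM, and the log2 difference of -0.89 (SE 0.82) was the most negative of the 10 yet little larger than its error. Trpv2 made up 55.7% of the summed FPKM of the 10 genes in PLLARS_US replicate 1 and 9.02% in PLLARS_US replicate 3, so the makeup of this group of messages differed more within the PLLARS_US group than between the group means of 29.1% and 37.0%. The lysosomal macrophage marker Cd68 stood at 464, 163 and 107 FPKM in PLLARS_US libraries and at 179, 228 and 529 in PCL libraries, and ranked the 6 libraries in the same order as Trpv2. Cd68 was singled out after its values were seen, and it was the 1 of 7 macrophage markers in that order. Of the 7 markers, 5 had a higher mean in PLLARS_US libraries and 2 (Cd68 and Csf1r) a lower one. The groups overlapped in 5 of the 7. Aif1 and Adgre1 were without overlap and higher in PLLARS_US libraries. Of all 13720 genes tested, 14.4% were without overlap, and 4.33% were without overlap and higher. Aif1 had 60.1, 47.9 and 47.5 FPKM in PLLARS_US libraries and 43.6, 31.6 and 34.1 in PCL libraries. Cd163, a scavenger receptor of macrophages, had 26.6, 31.5 and 71.2 FPKM in PLLARS_US libraries and 34.5, 36.2 and 9.49 in PCL libraries, and was highest where Trpv2 was lowest and lowest where Trpv2 was highest. The summed FPKM of all 7 macrophage markers, each above 1 FPKM in every library, was 1526, 1080 and 1219 in PLLARS_US libraries and 1097, 1091 and 1440 in PCL libraries. Their mean on log2(FPKM + 1), in which each marker has the same weight, was 7.02, 6.69 and 6.90 in PLLARS_US libraries and 6.71, 6.69 and 6.64 in PCL libraries, and was lowest in PCL replicate 3, where Trpv2 was highest. The correlation of this mean with Trpv2 over the 6 libraries was -0.17, given as a description. The part of these markers in the Trpv2 levels was not tested. Trpv2 (ENSRNOG00000003104) spans bases 48903540 to 48925030 of chromosome 10, plus strand.

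Trpv4, a calcium-permeable channel opened by swelling, warmth and shear, had 2.26, 4.83 and 3.58 FPKM in PLLARS_US libraries and 4.33, 4.11 and 2.05 in PCL libraries. Its group means were nearly equal, at 3.56 ± 1.28 and 3.50 ± 1.26 FPKM, with a log2 difference of 0.02 (SE 0.32). Trpc1, a subunit of store-operated and receptor-operated cation channels whose direct gating by force is debated, had 1.33, 2.56 and 3.46 FPKM in PLLARS_US libraries and 2.69, 2.57 and 1.46 in PCL libraries, a log2 difference of 0.06 (SE 0.31). Pkd2 encodes polycystin 2, the TRP-like channel that works with polycystin 1 in the primary cilium. It had 16.2, 25.4 and 24.3 FPKM in PLLARS_US libraries and 27.7, 27.1 and 19.2 in PCL libraries, and its log2 difference was -0.17 (SE 0.23). In all 3 of these genes the 2 lowest values came from PLLARS_US replicate 1 and PCL replicate 3.

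The potassium channels of the set are Kcnk2, which encodes TREK-1, and Kcnk4, which encodes TRAAK. Both are tandem-pore-domain channels that membrane stretch opens and that are known at the nodes of Ranvier of rat myelinated axons. Kcnk2 had 1.39, 3.83 and 4.73 FPKM in PLLARS_US libraries and 4.81, 3.54 and 1.07 in PCL libraries, with group means of 3.32 ± 1.72 and 3.14 ± 1.90. Its lowest library in each group was the muscle-rich one, and its log2 difference was 0.09 (SE 0.50). Kcnk4 had 0.409, 1.29 and 0.589 FPKM in PLLARS_US libraries and 2.19, 1.16 and 2.91 in PCL libraries. Of all PLLARS_US values, that of replicate 2 alone reached above a PCL value, and the group means were 0.764 ± 0.468 and 2.09 ± 0.880 FPKM. Kcnk4 thus had the smallest p of the 10 genes. Its log2 difference was -0.80 (SE 0.32, 95% interval -1.59 to -0.0057), with an unadjusted limma p of 0.0488 and an adjusted p of 0.708. The 2 muscle-rich libraries were at opposite ends of the Kcnk4 values, with PCL replicate 3 highest and PLLARS_US replicate 1 lowest, and without both the log2 difference was -0.46 (SE 0.35). Kcnk4 (ENSRNOG00000021140) spans bases 222183276 to 222189604 of chromosome 1, minus strand, and its low level means that each value rests on few fragments. The summed FPKM of 8 neuronal markers, all of which were found, was 19.2, 18.7 and 19.9 in PLLARS_US libraries and 31.4, 27.8 and 30.1 in PCL libraries. The groups overlapped in each of the 8 markers taken singly, of which 5 had a lower mean in PLLARS_US libraries and 3 (Prph, Snap25 and Syt1) a higher one. Stmn2, a stathmin of growing axons, had 3.79, 11.7 and 4.56 FPKM in PLLARS_US libraries and 18.3, 10.5 and 11.4 in PCL libraries. Syt1 and Rbfox3 were each listed at 0 in 1 library of either group, and the part of neuronal RNA in the Kcnk4 difference was not tested.

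The TMEM63 genes encode the animal relatives of the plant OSCA channels, which open under high membrane tension. Tmem63a was the steadiest of the 10 genes, with a coefficient of variation of 8.52% over the 6 libraries. It had 11.9, 11.1 and 10.3 FPKM in PLLARS_US libraries and 12.9, 11.6 and 12.7 in PCL libraries, and the groups overlapped through PLLARS_US replicate 1. Its log2 difference was -0.15 (SE 0.12, 95% interval -0.44 to 0.14). Tmem63b, which senses osmotic swelling in outer hair cells of the mouse ear, had 14.6, 19.4 and 20.1 FPKM in PLLARS_US libraries and 19.4, 20.2 and 15.7 in PCL libraries. Its log2 difference was -0.04 (SE 0.17), and its lowest libraries were again the muscle-rich ones.

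In most of these genes the lowest values followed single libraries of both groups. In 7 of the 10 genes (Piezo1, Piezo2, Pkd2, Trpv4, Trpc1, Kcnk2 and Tmem63b) both muscle-rich libraries lay below the other 4, as they did in 32.3% of all 13720 genes, and in Trpv2 both lay above, as in 12.1% of all. These counts describe the libraries and were made after their muscle content was known. The same 2 libraries were the lowest in fibroblast markers, whose summed FPKM was 3515, 5009 and 4949 in PLLARS_US libraries and 5536, 5121 and 2557 in PCL libraries. All 6 fibroblast markers were found. The 5 endothelial markers found of 6 summed to 106, 144 and 137 FPKM in PLLARS_US libraries and to 151, 133 and 110 in PCL libraries, with PLLARS_US replicate 1 and PCL replicate 3 again lowest. Taken singly, Cdh5 and Tek were lowest in these 2 libraries, whereas Kdr, Vwf and Tie1 were not. Tie1 was highest in PCL replicate 3, at 54.6 FPKM. The summed FPKM of the 7 Schwann cell markers ran from 1611 to 3598 in PLLARS_US libraries and from 1046 to 3291 in PCL libraries and was not lowest in the muscle-rich pair. The mean of the same markers on log2(FPKM + 1) was 6.27, 7.24 and 7.59 in PLLARS_US libraries and 6.69, 7.23 and 6.22 in PCL libraries, and was lowest in the muscle-rich pair. None of the fibroblast, endothelial or Schwann cell markers found was at 0 in any library. The part of tissue makeup in the channel levels was not tested.

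**Figure D2:**
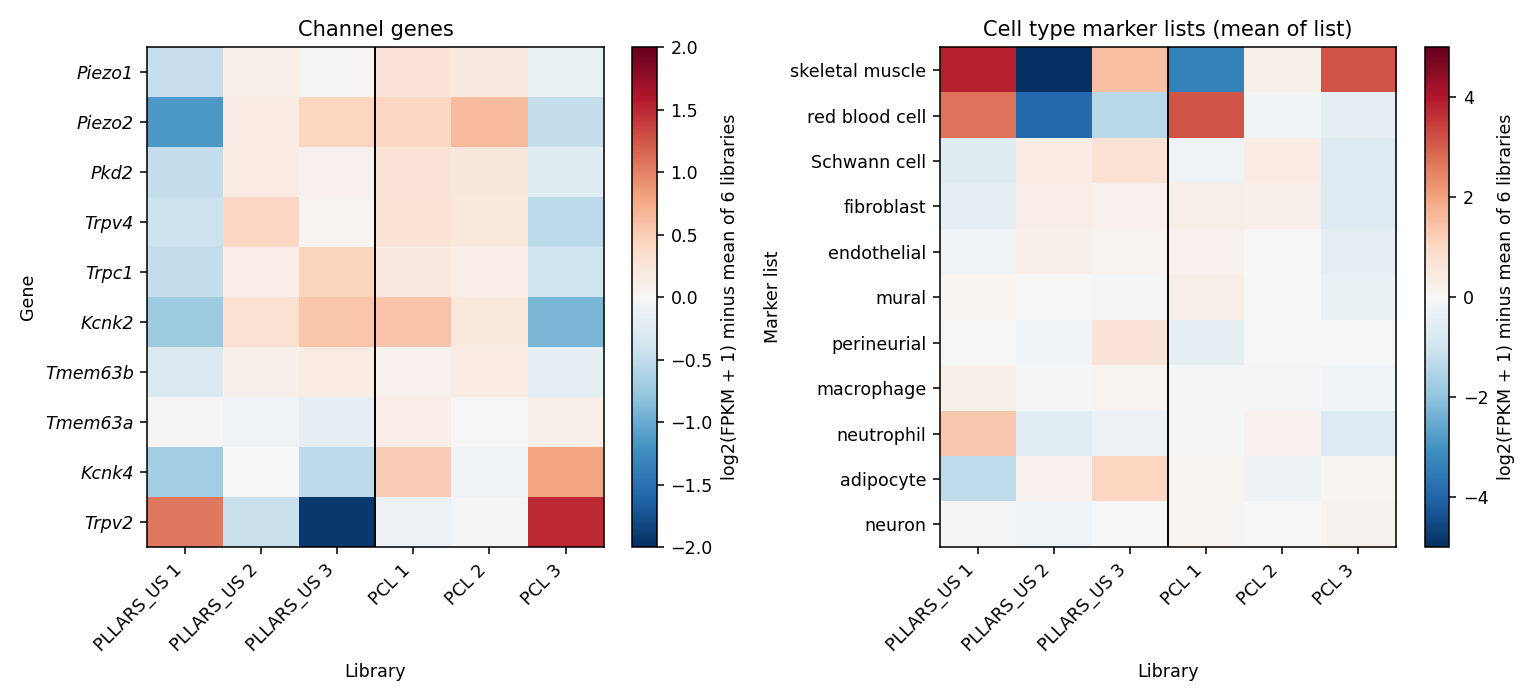
Levels by library for the 10 channel genes (left) and for the mean of 11 cell type marker lists (right), as log2(FPKM + 1) minus the mean of the 6 libraries, red above and blue below, with PLLARS_US libraries left of the black line and PCL libraries right of it. PLLARS_US replicate 1 and PCL replicate 3 are low in the upper 7 channel genes and high in Trpv2 and in skeletal muscle markers.

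The sequence upstream of the start is shown for Piezo2, Pkd2, Trpv4 and Kcnk2, which varied together over the libraries, and for Trpv2, which varied against them. Pearson correlations on log2(FPKM + 1) over the 6 libraries, given as a description, were 0.97 for Piezo2 with Pkd2, 0.90 for Pkd2 with Trpv4, 0.82 for Piezo2 with Trpv4 and -0.70 for Trpv2 with Piezo2. Those of Kcnk2 were 0.86 with Piezo2, 0.89 with Pkd2, 0.91 with Trpv4 and -0.86 with Trpv2. The 250 bases before the annotated start are from RefSeq on the rat assembly GRCr8, whose coordinates differ from those of the deposited table. RefSeq windows were matched for 7 of the 10 genes, 2 of them for Kcnk2, and not for Piezo1, Trpc1 and Tmem63b. Capitals mark matches on either strand to 1 of 3 motifs that share no letters with each other in these windows: the GC box GGGCGG, the TEAD motif GGAATG and the NFAT motif GGAAAA.
Piezo2, chr18:59115216-59115465, minus strand: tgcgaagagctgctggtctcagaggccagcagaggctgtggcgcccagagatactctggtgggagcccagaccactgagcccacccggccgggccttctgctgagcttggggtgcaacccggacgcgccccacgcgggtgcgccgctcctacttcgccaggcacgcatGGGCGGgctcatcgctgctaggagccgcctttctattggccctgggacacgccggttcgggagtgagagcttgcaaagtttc
Pkd2, chr14:5585141-5585390, minus strand: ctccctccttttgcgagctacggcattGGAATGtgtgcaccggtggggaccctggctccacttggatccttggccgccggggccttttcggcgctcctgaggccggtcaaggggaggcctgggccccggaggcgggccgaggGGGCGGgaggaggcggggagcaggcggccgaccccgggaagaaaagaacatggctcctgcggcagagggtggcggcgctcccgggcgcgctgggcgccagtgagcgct
Trpv4, chr12:47598938-47599187, plus strand: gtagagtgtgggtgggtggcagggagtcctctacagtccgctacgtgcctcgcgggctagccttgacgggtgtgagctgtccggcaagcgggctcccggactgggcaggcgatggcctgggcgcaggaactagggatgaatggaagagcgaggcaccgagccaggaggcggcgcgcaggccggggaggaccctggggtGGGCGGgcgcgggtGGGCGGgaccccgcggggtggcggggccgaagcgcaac
Kcnk2, first window, chr13:103494687-103494936, minus strand: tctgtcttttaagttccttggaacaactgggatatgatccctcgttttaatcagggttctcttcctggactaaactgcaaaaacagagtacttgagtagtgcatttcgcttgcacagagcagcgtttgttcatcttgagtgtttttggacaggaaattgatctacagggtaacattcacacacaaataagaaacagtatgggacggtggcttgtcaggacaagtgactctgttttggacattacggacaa
Kcnk2, second window, chr13:103438643-103438892, minus strand: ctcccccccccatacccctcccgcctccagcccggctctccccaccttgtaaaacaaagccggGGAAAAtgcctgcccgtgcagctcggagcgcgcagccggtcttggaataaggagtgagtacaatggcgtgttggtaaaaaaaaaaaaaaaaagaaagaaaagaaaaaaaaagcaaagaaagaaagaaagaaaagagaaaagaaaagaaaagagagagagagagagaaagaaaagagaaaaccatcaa
Trpv2, chr10:47771973-47772222, plus strand: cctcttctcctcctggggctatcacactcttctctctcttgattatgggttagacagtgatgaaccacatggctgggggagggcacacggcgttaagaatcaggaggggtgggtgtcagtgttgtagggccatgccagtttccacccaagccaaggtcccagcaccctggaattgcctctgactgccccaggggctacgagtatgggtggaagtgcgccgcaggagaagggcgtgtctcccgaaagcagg
The Piezo2 window held 1 GC box, 82 bases before the start, the Pkd2 window 1 at 108 bases with a TEAD match at 223 bases, and the Trpv4 window 2 at 52 and 38 bases. The Kcnk2 windows held no GC box, and the second held 1 NFAT match at 187 bases. The Trpv2 window held none of the 3 motifs. A GC box was found in 5 of the 7 genes with a window, among them Kcnk4 (at 25 bases) and Tmem63a (at 196 bases), which did not follow the pattern. A GC box was present in 30.5% of the 33469 windows of this length, a TEAD match in 12.1% and an NFAT match in 21.6%. GC content was 66.8% (Piezo2), 72.4% (Pkd2) and 72.8% (Trpv4), 42% and 45.6% in the 2 Kcnk2 windows, 58.4% for both Trpv2 and Kcnk4 and 60.4% for Tmem63a, against a median of 51.2% over all windows. A match describes letters and does not show that a factor binds.

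The comparison of PLLARS_US with PCL asked whether the device with ultrasound went with other levels of these channels. With limma on log2(FPKM + 1) and Benjamini-Hochberg adjustment over all 13720 genes tested, 0 of the 10 channel genes had an adjusted p under 0.05, and the share over all genes was 0.00%. The adjusted p of the 10 ran from 0.708 for Kcnk4 to 0.998 for Trpv4. At an unadjusted p under 0.05 there was 1 of 10, Kcnk4, which was lower, and over all genes 7.00% reached that level, 1.99% higher and 5.01% lower. Kcnk4 stayed under that level in 6 of 17 alternatives, with unadjusted limma p from 0.0234 without PCL replicate 2 to 0.257 without both muscle-rich libraries. Groups that do not overlap were seen in 0 of 10, against 14.4% of all genes tested. All 10 genes passed the filter on low values. Of these, 3 had a higher mean on the log2 scale in PLLARS_US libraries and 7 a lower one, with a median log2 difference of -0.16, while 57.0% of all genes were lower with a median of -0.04. The median of the 10 was 0.066 without PLLARS_US replicate 1 and -0.33 without PCL replicate 3. These shares move with the scaling of the libraries: at an unadjusted p under 0.05 the split over all genes was 273 higher and 687 lower, and 425 higher and 508 lower under median-ratio scaling.

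The intervals show how large a difference the 6 libraries leave room for. They were narrowest for Tmem63a, at -0.44 to 0.14, and for Tmem63b, at -0.46 to 0.39, followed by Piezo1 at -0.70 to 0.28 and Pkd2 at -0.73 to 0.39. For these 4 abundant genes the 95% interval stayed within 1 unit of log2. The intervals of Trpc1 (-0.69 to 0.82) and Trpv4 (-0.75 to 0.80) were wider but also stayed within 1 unit. Those of Piezo2 (-1.58 to 0.84), Kcnk2 (-1.12 to 1.31), Kcnk4 (-1.59 to -0.0057) and Trpv2 (-2.88 to 1.11) take in changes of more than 1 unit of log2. The log2(FPKM + 1) scale understates the change of low genes, so their intervals do not compare directly with those of abundant genes. The Kcnk4 difference of -0.80 was -1.38 with 0.1 added to FPKM in place of 1. A p above the threshold does not show that the groups were alike for these genes.

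**Figure D3:**
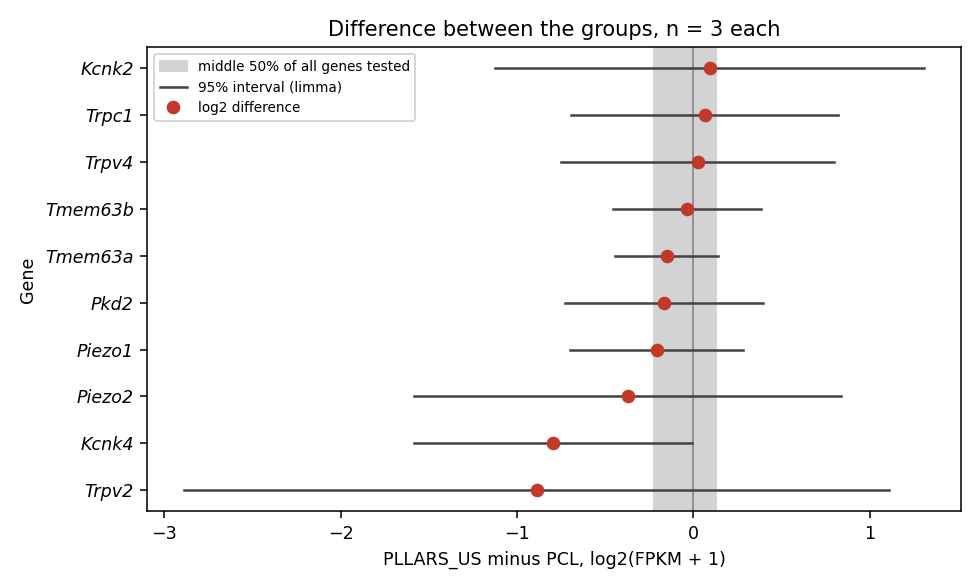
Log2 difference of each channel gene, PLLARS_US minus PCL on log2(FPKM + 1), as a red point with its 95% limma interval (n = 3 each), beside the middle 50% of all 13720 genes tested in grey. The interval of Kcnk4 ends at -0.0057 and the other 9 include 0.

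Single libraries moved these differences. Without PLLARS_US replicate 1 the log2 difference was 0.11 for Piezo2, 0.03 for Pkd2 and 0.10 for Tmem63b, each with the opposite sign to the value from all libraries, and that of Kcnk2 was 0.47. Without PCL replicate 3 the differences were -0.71 for Piezo2, -0.34 for Kcnk2, -0.12 for Trpc1 and -0.23 for Trpv4. Trpv2 ran from -1.64 without PLLARS_US replicate 1 to -0.14 without PLLARS_US replicate 3. Tmem63a stayed between -0.20 and -0.10 over the 6 single libraries left out, Piezo1 between -0.33 and -0.03, and Kcnk4 between -1.03 and -0.60. Without both muscle-rich libraries, the differences of Piezo1 and Pkd2 were -0.16 (SE 0.09) and -0.14 (SE 0.08) and that of Tmem63b was -0.0018 (SE 0.088). The SEs of these 3 with all 6 libraries were 0.20, 0.23 and 0.17.

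**Figure D4:**
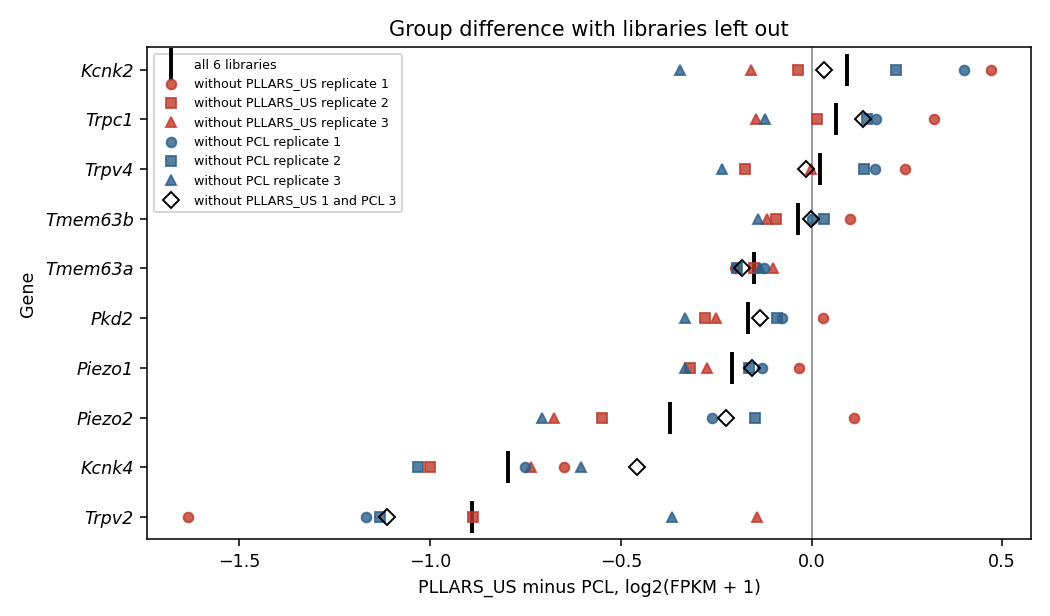
Log2 difference of each channel gene, PLLARS_US minus PCL on log2(FPKM + 1), with all 6 libraries (black bar), without each library in turn (red for PLLARS_US, blue for PCL, 1 symbol per replicate) and without PLLARS_US replicate 1 and PCL replicate 3 together (open diamond). Points of Tmem63a, Piezo1, Kcnk4 and Trpv2 stay below 0, and those of the other 6 genes fall on both sides.

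Other channels reported to respond to stretch, swelling or touch were looked at beside the 10. Of 22 such genes, 11 had a mean of at least 1 FPKM, and 0 of these passed in either direction. Their median log2 difference was -0.08, with 2 higher and 9 lower and 0 without overlap. Over all genes tested, 57.0% were lower and 14.4% were without overlap. The most abundant were Lrrc8a, the core subunit of the volume-regulated anion channel, at 23.4 ± 5.99 FPKM in PLLARS_US and 23.3 ± 1.70 in PCL libraries, and Trpm7, a channel fused to a kinase, at 17.4 ± 2.18 and 18.2 ± 1.29. Pkd1, which encodes polycystin 1, had 14.5 ± 3.03 FPKM in PLLARS_US and 16.2 ± 2.26 in PCL libraries, and Tmem87a 9.90 ± 0.879 and 10.5 ± 0.845. Trpa1, Asic3, Tmc1 and Tmc2, known from sensory neurons and hair cells, each stayed under 1 FPKM in every library, with group means of 0.160 FPKM in PLLARS_US and 0.243 in PCL libraries for Trpa1. These 4 were named after their values were seen. Kcnk10, which encodes TREK-2, the third stretch-gated potassium channel of the group, was also under 1 FPKM in every library. Trpv1 and Asic2 of the same list went above 1 FPKM in some libraries. They reached 1.23 FPKM in PCL replicate 3 and 1.51 in PLLARS_US replicate 3, respectively.

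Of 13 genes that bind, modify or act beside these channels, 11 were tested and 0 passed. Of the 11, 2 were higher and 9 lower, with a median log2 difference of -0.11, where 57.0% of all genes tested were lower. Stom, the stomatin gene, whose product binds and modulates acid-sensing channels, had 151, 73.3 and 52.4 FPKM in PLLARS_US libraries and 83.8, 104 and 315 in PCL libraries. Its 2 highest libraries were the muscle-rich ones, as for Trpv2, and its log2 difference was -0.74 (SE 0.61), which became -1.16 without PLLARS_US replicate 1 and -0.16 without PCL replicate 3. Cav1, the caveolin that forms membrane pits which flatten under stretch, had 154 ± 45.7 and 125 ± 11.7 FPKM in PLLARS_US and PCL libraries. Atp2a2, the calcium pump SERCA2 that restrains Piezo1, had 51.1 ± 3.31 and 54.8 ± 1.46 FPKM in PLLARS_US and PCL libraries, and Mtmr2, a phosphoinositide phosphatase that dampens Piezo2, had 47.3 ± 3.97 and 47.6 ± 2.52. Stoml3, the stomatin relative that sharpens touch in mouse sensory neurons, was listed at 0 in all 3 PLLARS_US libraries and at 0.030 to 0.136 FPKM in PCL libraries (named after its values were seen). It was under the filter and not tested, and values this low rest on few fragments. Of the 11 tested genes of this list, 1 was without overlap, against 14.4% of all genes tested. This was Orai1, the pore of store-operated calcium entry. It had 31.5, 29.7 and 21.9 FPKM in PLLARS_US libraries and 31.8, 34.2 and 32.8 in PCL libraries, a log2 difference of -0.26 (SE 0.16).

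Calcium that enters through such channels acts through calmodulin, calcineurin, calcium-dependent kinases and pumps. Of 26 gene models of this group, 24 were tested and 0 passed, with 12 higher and 12 lower and a median log2 difference of -0.02. Groups did not overlap in 5 of 24, against 14.4% of all genes, of which 1 was higher and 4 lower. At an unadjusted limma p under 0.05 there were 3, all lower. Atp2b4, a plasma membrane calcium pump, had 13.4, 19.6 and 17.5 FPKM in PLLARS_US libraries and 21.5, 27.1 and 29.7 in PCL libraries, a log2 difference of -0.61 (SE 0.19, adjusted p 0.588). Camk1, a calmodulin-dependent kinase, had 15.7, 21.5 and 20.4 FPKM in PLLARS_US libraries and 26.2, 23.9 and 29.1 in PCL libraries, a log2 difference of -0.45 (SE 0.16, adjusted p 0.650). Camkk2, the kinase that activates Camk1, had 3.32, 4.05 and 4.37 FPKM in PLLARS_US libraries and 4.95, 5.89 and 5.72 in PCL libraries, a log2 difference of -0.41 (SE 0.16, adjusted p 0.677). In each of these 3 every PLLARS_US library lay below every PCL library, and 5.01% of all genes were lower at that unadjusted level. Without both muscle-rich libraries the log2 differences were -0.36 for Atp2b4, -0.24 for Camk1 and -0.30 for Camkk2. Their unadjusted limma p were 0.0624, 0.0582 and 0.115, so 0 of the 3 stayed under 0.05 in that smaller fit. Over the alternatives that kept each gene, the unadjusted limma p was under 0.05 in 15 of 18 for Atp2b4, 13 of 18 for Camk1 and 7 of 17 for Camkk2. The 2 models named Calm2, which encodes calmodulin, had 124 ± 32.5 and 109 ± 11.2 FPKM in PLLARS_US libraries and 120 ± 6.93 and 127 ± 11.7 in PCL libraries, and since calmodulin genes have near-identical copies, how reads were shared between them is uncertain. Capn2, a calpain protease activated by calcium, had 127 ± 10.8 and 113 ± 17.6 FPKM in PLLARS_US and PCL libraries.

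**Figure D5:**
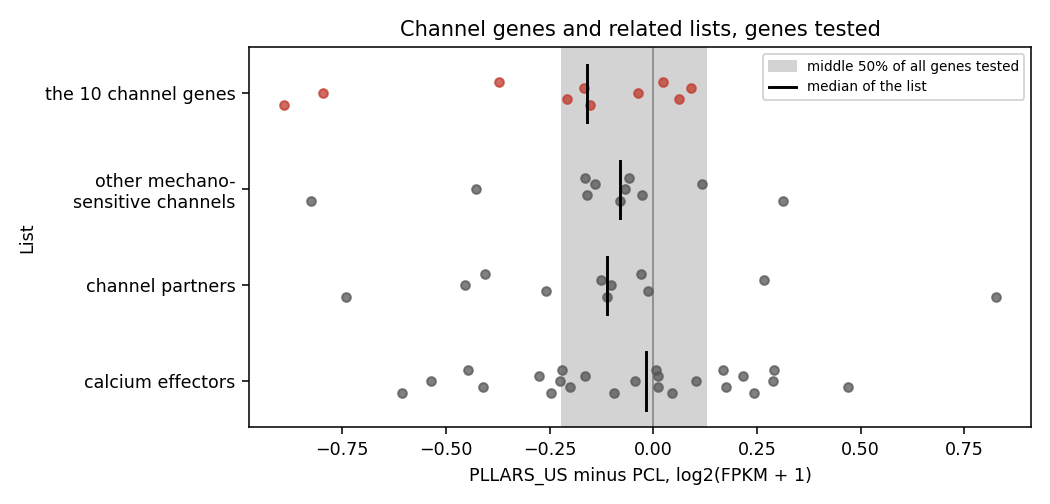
Log2 differences, PLLARS_US minus PCL on log2(FPKM + 1), of the 10 channel genes (red) and of the tested genes of 3 related lists (grey), with a black line at each median and the middle 50% of all genes tested shaded. The medians lie at -0.16 for the channel genes, -0.08 for other mechanosensitive channels, -0.11 for channel partners and -0.02 for calcium effectors.

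The genes whose pattern over the 6 libraries was most like that of a channel were taken by Pearson correlation on log2(FPKM + 1) among 10001 genes with a mean of at least 5 FPKM. With 6 libraries that share tissue makeup, high values are common, and the correlations are given as a description. The highest correlation of each channel ran from 0.981 for Tmem63a with Ppme1 to 0.9996 for Pkd2 with Spry4, an inhibitor of receptor tyrosine kinase signalling. Plekhg2 was the most like Piezo1, Zmym3 the most like Piezo2 with Pkd1 second, Cdc42ep5 the most like Trpv4, Glt8d2 the most like Trpc1, Nucb1 the most like Kcnk2 and Stard13 the most like Tmem63b, each with a correlation of at least 0.995. For Trpv2 the 3 most like were Cxcr4, a chemokine receptor of leukocytes (0.997), Slamf6, a receptor of lymphocytes (0.997), and Prdx5, an antioxidant peroxiredoxin (0.997). For Kcnk4 they were Aldh16a1 (0.992), Slc66a3 (0.989) and Uqcrh (0.985). A correlation of at least 0.95 was reached by 18 genes for Kcnk4 and by 9 for Tmem63a, against 146 for Trpv2 and 308 to 570 for the other 7 channels.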

How the data were processed

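RNA from 6 sciatic nerves was measured by poly(A)-enriched paired-end RNA sequencing, per the labels' protocols, and each title gave its library's group and replicate number. The authors deposited FPKM per gene model, with 1 column per library and rat Ensembl identifiers, and a second sheet with the same values in all 21028 rows was not used. The tools DESeq 1.28.0, StringTie 1.3.3b, HISAT2 2.1.0 and FastQC 0.11.5 stand in the submitters' processing notes without a role. The build named there is the human hg38, so it is not settled which rat build the deposited positions use. Counts were not analysed here. Small single-exon models gave whole multiples of a step for 1193 of 1193 values under 50 fragments (within 0.03), and the depths come from those steps, rounded to 10000.

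The test was limma 3.58.1 (R 4.3.3) on log2(FPKM + 1), a scale that understates the change of low genes. It covered genes averaging at least 1 FPKM, used a design of group alone with trended variance, and adjusted p by Benjamini-Hochberg over all of them (threshold 0.05). Group errors are SDs of 3 rats taken as 1 library each. The members and the gene lists were chosen with earlier results of these data known. Named genes were the 10 channels, from each related list the 4 of highest mean and those with an unadjusted p under 0.05, the 3 genes most like each channel, and markers beside a result; 1 gene that this rule names is not reported here. On simulated data with 13526 genes tested in this comparison, 34% of 100 genes changed by 1 on the log2 scale and 61% of 100 changed by 2 were called, with 7 unchanged genes called. The changed genes all had a mean log2(FPKM + 1) above 2, so the rates do not cover lower genes such as Kcnk4 and Trpc1. Noise was drawn separately for each gene and library, so a tissue pattern shared between genes was not simulated. Same-numbered libraries deviated from their group means with correlations of -0.50, 0.15 and -0.32, so the numbers were not taken as pairs. Alternatives covered the pseudocount, the filter, scaling, the variance model, a replicate block, the muscle marker level and leaving out libraries. The markers Pecam1, Myh1 and Hba1 were not matched and not used here.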

Additional observations from a re-analysis of the deposited data

How the results depend on the processing

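None of the 10 channel genes had an adjusted limma p under 0.05 in any of the 18 alternatives that kept it among the genes tested, where the smallest was 0.273 for Trpv2 with array weights. Over all genes the count was 0 with all libraries and 960 at an unadjusted p under 0.05. It was 118 with array weights, which gave PLLARS_US replicate 1 and PCL replicate 3 the lowest weights (0.209 and 0.295), 4 with the muscle level as a covariate, and 0 to 3 when single libraries were left out. With the replicate block it was 0, with 543 genes at an unadjusted p under 0.05. The same-numbered libraries were in no case the best correlated ones, so the block is not read as pairing. Over the single libraries left out, the median log2 difference ran from -0.33 to 0.066 for the 10 channel genes, -0.16 to 0.031 for the other mechanosensitive channels, -0.15 to -0.073 for the channel partners and -0.13 to -0.016 for the calcium effectors, which stood at 0.044 under median-ratio scaling.

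Some signs turned. With single libraries left out, the log2 difference ran from -0.34 to 0.47 for Kcnk2, -0.71 to 0.11 for Piezo2, -0.33 to 0.030 for Pkd2, -0.14 to 0.10 for Tmem63b, -0.15 to 0.32 for Trpc1, -0.23 to 0.24 for Trpv4, -0.16 to 0.19 for Lrrc8a, -0.14 to 0.031 for Trpm7, -0.27 to 0.010 for Pkd1, -0.057 to 0.057 for Mtmr2 and -0.13 to 0.25 for the Calm2 model ENSRNOG00000016770. Under median-ratio scaling it was 0.024 for Tmem63b, 0.032 for Lrrc8a and 0.050 for Mtmr2, and under quantile normalization 0.0016 for Lrrc8a and 0.00041 for Mtmr2. With array weights it was -0.0052 for Trpv4 and 0.13 for Lrrc8a. Without both muscle-rich libraries it was -0.013 for Trpv4, 0.14 for Lrrc8a and 0.022 for Trpm7. The cause was not tested. With array weights Camk1 stood at -0.24. Kcnk4 ran from -1.38 with a pseudocount of 0.1 to -0.33 with array weights. It was under the filter at a mean of 5 FPKM, as were Kcnk2, Trpc1 and Trpv4.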
